A study of Mus musculus with 6 samples.

Results

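The genes described here are 9 regulators of skeletal muscle formation and of satellite cells, the stem cells of muscle: Pax7, Myf5, Myod1, Myog, Myf6, Mef2c, Mef2d, Mymk and Mstn. They were chosen by gene symbol, 9 of the 34361 genes in the deposited table, and were set between knockout-labelled and control mouse femora. The knockout-labelled group is 3 libraries (A1 to A3) from mice in which tamoxifen was used to induce a gene deletion, and the control group is 3 libraries (B1 to B3) from mice injected with corn oil. The deleted gene is Fshr, which encodes the follicle-stimulating hormone receptor, in the design text, but FGF21 in the treatment labels. The series title concerns this hormone in osteocytes of ovariectomized mice, but the labels do not say whether these animals were ovariectomized or had a fracture, and they give no strain, age, sex or Cre driver. Tamoxifen was given to the knockout-labelled animals alone, so the drug and the deletion cannot be told apart.

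The libraries were made from poly(A)-selected RNA with a stranded kit and held 65.8 to 73.5 M estimated counts each, which corresponds to 16.4 to 18.4 M read pairs if a pair adds 4 counts. Fshr and Fgf21 were both at 0 counts in all 6 libraries, so neither name in the labels can be checked. The limit that a count of 0 allows was taken as 3 read pairs, or 12 counts, which is 0.163 to 0.182 CPM, a count set against the total of its library, and covers counting error alone. The labelled tissue was checked against a list of 9 bone cell markers, none of which was at 0 in all libraries. That list held 1.13% to 1.15% of counts in the knockout-labelled libraries and 4.99% to 5.04% in the controls. The opposite held for skeletal muscle fibres. A list of 12 fast fibre genes, which encode actin, myosins, troponins and other parts of fast-twitch fibres, held 9.76% to 9.81% of counts in the knockout-labelled libraries and 1.91% to 1.94% in the controls. A list of 7 slow fibre genes held 0.519% to 0.524% in the knockout-labelled libraries and 0.283% to 0.286% in the controls. The design text gives 3 mice per group, and p-values measure only the spread between these samples. In tissue RNA of this kind, fewer cells of a type and less RNA per cell cannot be told apart. The amount of muscle tissue in each sample is not among the values used, so its part in the fibre shares was not tested.

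Muscle is built and repaired by a ladder of transcription factors. Pax7 marks quiescent and activated satellite cells, Myf5 and Myod1 commit cells to the muscle lineage, Myog drives their differentiation, and Myf6 (also called Mrf4) is found mainly in formed fibres. These myogenic regulatory factors bind E-boxes as dimers with E proteins, and the Mef2 factors, which are also expressed outside muscle, act with them on muscle genes. Mymk (myomaker) is the membrane protein that lets myoblasts fuse, and Mstn (myostatin) is a secreted factor made by fibres that restrains muscle growth.

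Of the 9 genes, 8 were abundant enough to be tested and all 8 were higher in the knockout-labelled femora, with a median log2 fold change of 1.73. Myf5 was among the 8 only through its knockout-labelled counts, since its control counts alone would not have passed the expression filter. Across the transcriptome, 28.7% of the 20388 genes tested were higher and 28.8% were lower (quasi-likelihood test of edgeR, a model of counts over all genes, with a Benjamini-Hochberg threshold of 0.05), with a median log2 fold change of -0.02. Mymk stayed under the limit of 12 counts in every library. For each of the 8 genes the 3 knockout-labelled libraries lay above the 3 control libraries in CPM. How many of all tested genes lie apart in this way was not counted. Fold changes use TMM scaling, which sets the libraries level on the bulk of their genes, and so are relative to the median gene. Library totals alone shifted that gene by -0.42 and gave 3379 genes higher and 10339 lower, and the 8 genes remained higher and called.

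**Figure D1:**
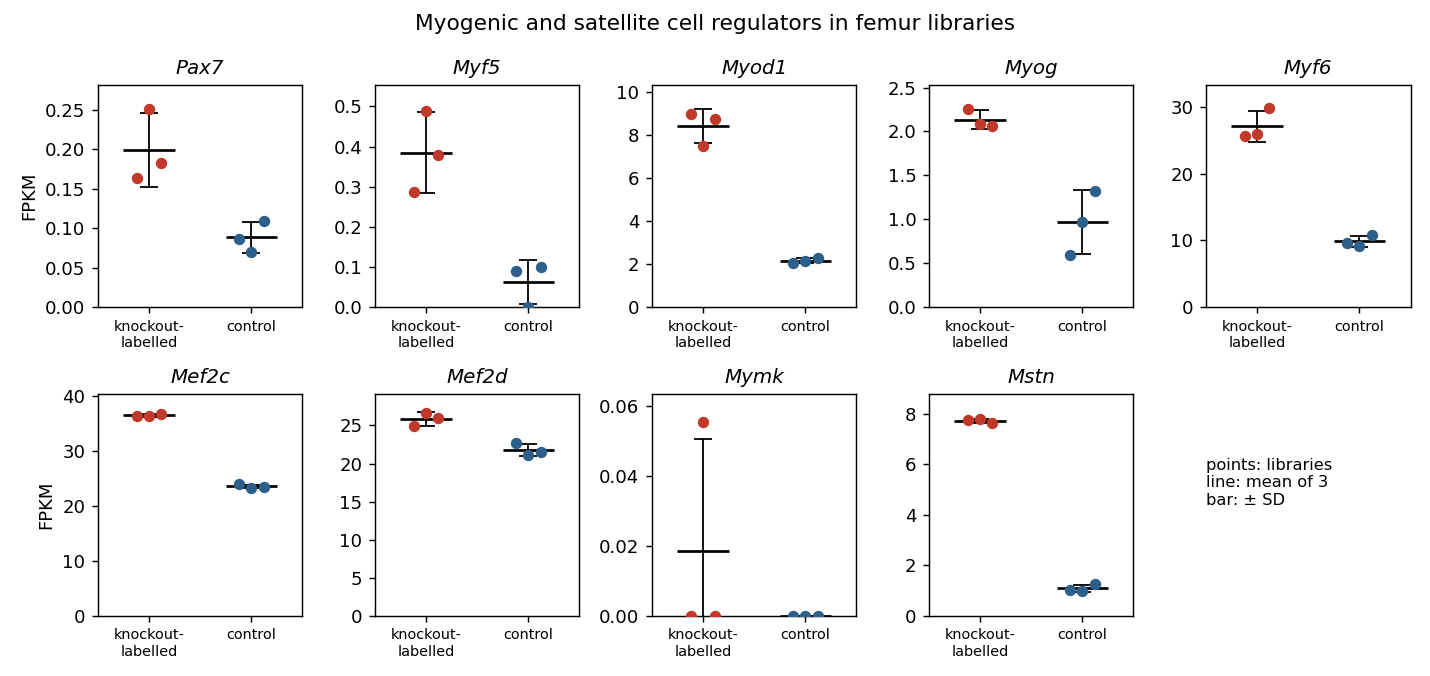
FPKM (y axis, linear, a scale per gene) of the 9 regulators in knockout-labelled (left) and control (right) femora. Points are libraries, lines the mean of 3 and bars the SD; the groups are apart for 8 genes, while Mymk was listed above 0 in 1 library.

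Pax7 and Myf5, the genes that mark satellite cells and early myoblasts, were the least abundant of the 8. Pax7 (ENSMUSG00000028736, GRCm39 chromosome 4, 139464373 to 139560839, minus strand), a paired-box factor needed to maintain satellite cells, had 70, 106 and 85 counts in the knockout-labelled libraries, against 38, 32 and 49 counts in the controls. Per length it reached, in the deposited FPKM (fragments per kilobase, scaled to depth), 0.199 ± 0.0464 in knockout-labelled femora and 0.0886 ± 0.0195 in controls (SD, n = 3 each). No library of a group reached into the range of the other, and at about 4 counts per pair the values rest on 8 to 26.5 read pairs. The TMM-scaled log2 fold change was 1.58 (SE 0.25, edgeR quasi-likelihood adjusted p = 0.0012).

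Myf5 (ENSMUSG00000000435, chromosome 10, 107318769 to 107321995, minus strand), a factor of committed myoblasts, had 44, 73 and 63 counts in the knockout-labelled libraries, against 14, 0 and 16 counts in the controls. The control libraries lay near or below the limit of 12 counts. In FPKM it stood at 0.385 ± 0.101 in knockout-labelled femora and 0.0633 ± 0.0551 in controls (SD, n = 3 each). Its log2 fold change of 3.0 (SE 1.0, edgeR quasi-likelihood adjusted p = 0.0050) had the widest error of the 8 and was 2.42 (adjusted p = 0.0015) without control 2, the library at 0. The control counts of Myf5 alone would not have passed the expression filter, and without that filter its adjusted p was 0.029 in the same test. In the transcript table, where the same counts were tested among 47621 transcripts, its adjusted p was 0.15.

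Myod1, Myf6 and Myog are factors of commitment, of formed fibres and of differentiation, and all were well above the detection limit. Myod1 (ENSMUSG00000009471, chromosome 7, 46025898 to 46028523, plus strand), the factor that can turn fibroblasts into muscle, had 8.95, 7.49 and 8.75 FPKM in the knockout-labelled libraries, against 2.04, 2.15 and 2.28 FPKM in the controls. The lowest knockout-labelled library stood well above the highest control, and the log2 fold change was 2.39 (SE 0.096, edgeR quasi-likelihood adjusted p = 1.4e-09). Myf6 (ENSMUSG00000035923, chromosome 10, 107328714 to 107330598, minus strand), the neighbour of Myf5 on the chromosome and the most abundant of the 4 myogenic factors per length, had 25.7, 26.0 and 29.8 FPKM in the knockout-labelled libraries, against 9.65, 9.15 and 10.8 FPKM in the controls. Its groups were as clearly apart, with a log2 fold change of 1.89 (SE 0.098, edgeR quasi-likelihood adjusted p = 1.0e-09).

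Myog (ENSMUSG00000026459, chromosome 1, 134217727 to 134220286, plus strand), the factor of terminal differentiation, had 2.26, 2.08 and 2.06 FPKM in the knockout-labelled libraries, against 0.594, 0.974 and 1.33 FPKM in the controls. The knockout-labelled libraries were close together, whereas the controls spread over a wide range, up to the library nearest the other group. The log2 fold change was 1.56 (SE 0.33, edgeR quasi-likelihood adjusted p = 0.00022).

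The sequence before the start of Myog is shown because it is a textbook target of the myogenic factors, which bind the E-box CANNTG, a motif that is its own reverse complement. The RefSeq promoter table (GRCm38.p6) matched 6 of the 9 genes, and 72.3% of its 32851 promoters of equal length hold at least 1 E-box, so a match is common. The CAGCTG form was in 16.3% of all promoters and in 0 of those of the 6 genes. Letters in capitals mark E-boxes, and the sequence ends at the last base before the start (GRCm38.p6 chr1:134289754-134290003, plus strand).
Myog: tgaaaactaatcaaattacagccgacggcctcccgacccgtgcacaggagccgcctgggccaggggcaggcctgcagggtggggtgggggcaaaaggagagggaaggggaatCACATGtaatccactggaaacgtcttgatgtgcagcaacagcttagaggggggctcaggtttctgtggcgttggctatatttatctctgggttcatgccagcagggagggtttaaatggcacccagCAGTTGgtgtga
The Myog E-boxes read CACATG, beginning 138 bases before the start, and CAGTTG, beginning 12 bases before it. The promoters of Pax7, Myf5 and Mef2d held 0 E-boxes.

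The ratios between the myogenic factors also lay apart in the groups. The FPKM ratio of Myog to Myod1 was 0.252, 0.278 and 0.236 in the knockout-labelled libraries, against 0.292, 0.454 and 0.582 in the controls. That of Myf6 to Myod1 was 2.87, 3.48 and 3.41 in the knockout-labelled libraries, against 4.74, 4.26 and 4.74 in the controls. Both ratios were lower in all 3 knockout-labelled libraries than in any control, and Myod1 was higher there relative to Myog and to Myf6. On the log2 scale the difference was -0.74 (SE 0.30) for Myog to Myod1 and -0.50 (SE 0.10) for Myf6 to Myod1. The exact two-sided permutation test of 3 against 3 gave p = 0.1 for each, which is the smallest p it allows (adjusted p = 0.1 over 3 ratios). The ratio of Myf5 to Myod1 was 0.0320, 0.0652 and 0.0434 in the knockout-labelled libraries, against 0.0437, 0 and 0.0443 in the controls, which overlapped.

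Mef2c was the most abundant of the 9 genes per length in both groups, and it and Mef2d had the smallest fold changes of the 8. Mef2c (ENSMUSG00000005583, chromosome 13, 83652153 to 83815197, plus strand), which is also used in osteocytes, chondrocytes, B cells and endothelium, had 36.3, 36.3 and 36.7 FPKM in the knockout-labelled libraries, against 23.9, 23.3 and 23.4 FPKM in the controls. Replicates differed by little beside the gap between the groups, and the log2 fold change was 1.06 (SE 0.0093, edgeR quasi-likelihood adjusted p = 2.3e-13). Mef2d (ENSMUSG00000001419, chromosome 3, 88049679 to 88079393, plus strand), expressed in many tissues, had 24.9, 26.6 and 26.0 FPKM in the knockout-labelled libraries, against 22.7, 21.2 and 21.5 FPKM in the controls. Its log2 fold change of 0.67 (SE 0.038, edgeR quasi-likelihood adjusted p = 3.8e-09) was the smallest of the 8, and 0.25 (adjusted p = 3.4e-05) with library totals alone. The Mef2c to Mef2d ratio was 1.46, 1.36 and 1.41 in the knockout-labelled libraries, against 1.06, 1.10 and 1.09 in the controls, a log2 difference of 0.38 (SE 0.033, exact permutation p = 0.1).

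Markers of other cell types that use Mef2c were set beside it, against 28.7% of all tested genes higher and 28.8% lower. Among 8 tested B cell markers 6 were higher and 1 was lower, and their summed share of counts was 0.0121% to 0.0127% in knockout-labelled libraries and 0.00941% to 0.00999% in controls. Endothelial markers, 3 of 8 higher, 1 lower and 4 not called with a median log2 fold change of 0.04, held 0.0413% to 0.0415% of counts in knockout-labelled libraries and 0.0517% to 0.0531% in controls. With library totals alone, 0 of those 8 were higher and 8 lower, a scaling by which 10339 of all 20388 genes were lower. Chondrocyte markers, 3 of 6 higher and 1 lower, held 0.0496% to 0.0511% in knockout-labelled libraries and 0.293% to 0.300% in controls. Nearly all of that share was Col2a1, a cartilage collagen named after its values were seen, with 33190, 32232 and 35347 counts in knockout-labelled libraries, against 204279, 208933 and 204878 counts in controls. Of the 9 bone cell markers 7 were lower and 2 higher, and 8 were lower and 1 higher with library totals alone. Sost, the osteocyte gene for sclerostin and a Mef2c target, was higher, with a log2 fold change of 0.95 (SE 0.010, edgeR quasi-likelihood adjusted p = 1.3e-13). With library totals alone its log2 fold change was 0.53. Of the other markers in that list, Spp1 (-2.27), Ibsp (-2.12), Col1a1 (-1.94), Alpl (-1.63), Phex (-0.92), Dmp1 (-0.70) and Fam20c (-0.37) were lower and Mepe (0.18) was higher. These genes were named after their values were seen. The part of each cell type in the Mef2c level was not tested.

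Both Mef2 genes have an alternative coding exon after the exons of the DNA-binding domain, where transcripts carry either member of a mutually exclusive pair, and which exon is used is known to differ between muscle and other tissues. The exons are shown because the share of transcripts that carry each lay apart in the groups. They were read from GENCODE M21 transcripts (GRCm38, both genes on the plus strand) that have the same identifier and length in the deposited table, and capitals mark bases identical, in a global alignment, to the most similar exon of the other gene.
Mef2d 135-base exon: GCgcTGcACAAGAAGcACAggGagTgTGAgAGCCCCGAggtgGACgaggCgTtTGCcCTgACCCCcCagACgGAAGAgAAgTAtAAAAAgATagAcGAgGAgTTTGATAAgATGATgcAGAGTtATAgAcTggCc
Mef2c 138-base exon: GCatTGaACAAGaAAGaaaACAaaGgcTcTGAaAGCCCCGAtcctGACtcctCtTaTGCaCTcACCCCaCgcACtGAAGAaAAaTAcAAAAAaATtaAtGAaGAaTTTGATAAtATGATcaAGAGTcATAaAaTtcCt
Mef2d 138-base exon: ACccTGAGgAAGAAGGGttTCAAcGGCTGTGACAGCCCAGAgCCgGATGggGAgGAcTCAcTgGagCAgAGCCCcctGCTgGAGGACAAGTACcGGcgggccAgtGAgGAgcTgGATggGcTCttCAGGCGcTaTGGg
Mef2c 144-base exon: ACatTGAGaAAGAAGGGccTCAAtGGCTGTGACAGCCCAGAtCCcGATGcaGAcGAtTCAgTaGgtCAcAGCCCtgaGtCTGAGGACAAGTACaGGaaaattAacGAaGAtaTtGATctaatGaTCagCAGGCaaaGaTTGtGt
The Mef2d exon of 135 bases (ENSMUST00000107558, chr3:88158221-88158355) and the Mef2c exon of 138 bases (ENSMUST00000005722, chr13:83625470-83625607) were identical at 91 bases, or 67.4% of the shorter. The Mef2d exon of 138 bases (ENSMUST00000001455, chr3:88158034-88158171) and the Mef2c exon of 144 bases (ENSMUST00000199432, chr13:83625265-83625408) were identical at 96 bases, or 69.6%. Within a gene the exons shared 61.5% in Mef2d and 68.1% in Mef2c, so the Mef2c exon of 138 bases was about as close to its own partner as to its Mef2d counterpart.

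The share of transcripts with the Mef2d exon of 135 bases, and with its Mef2c counterpart of 138 bases, was higher in every knockout-labelled library than in any control. For Mef2d, transcripts with the 135-base exon made up 10.7%, 10.7% and 10.4% of summed transcript FPKM in the knockout-labelled libraries, against 5.53%, 5.01% and 5.01% in the controls. For Mef2c, transcripts with the 138-base exon, with or without a further exon of 60 bases, made up 90.7%, 89.0% and 85.5% in the knockout-labelled libraries, against 79.0%, 72.5% and 74.1% in the controls. The exact permutation p was 0.1 for each, the smallest possible with 3 against 3. The Mef2c exon of 144 bases was carried by 8.75%, 10.4% and 14.1% in the knockout-labelled libraries, against 20.4%, 26.7% and 25.5% in the controls. Taken as shares of counts rather than FPKM, an alternative added after seeing the data, the differences were 2.18 percentage points for the Mef2d exon, against 5.42 in FPKM, and 8.50 for the Mef2c exon, against 13.2 in FPKM.

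**Figure D2:**
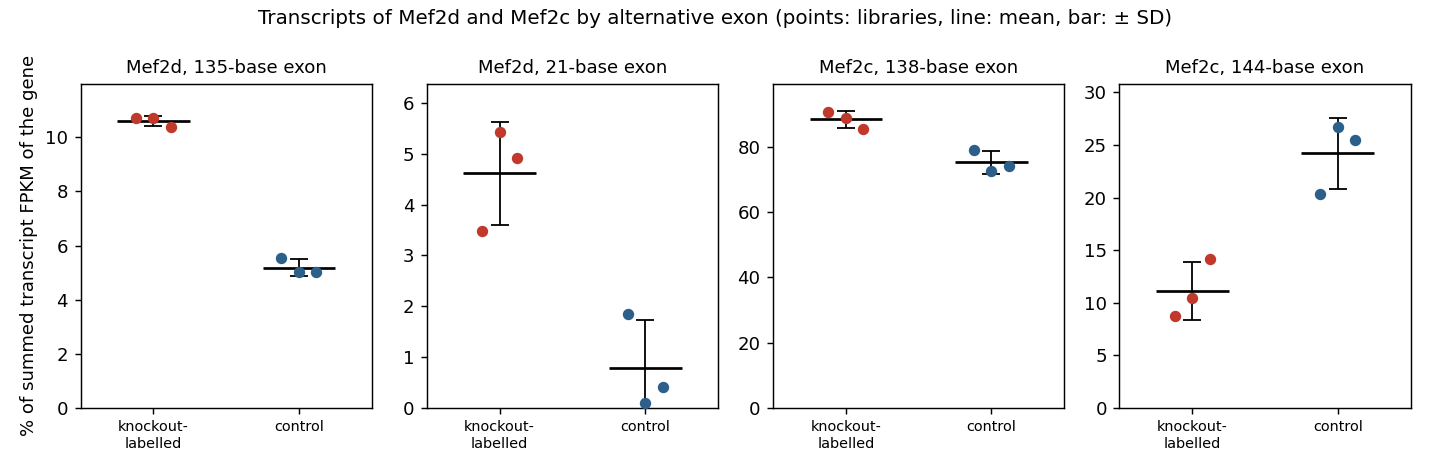
Share of summed transcript FPKM of the gene (y axis, percent, from 0) for transcripts of Mef2d and Mef2c with each alternative exon, in knockout-labelled (left) and control (right) femora. Points are libraries, lines means of 3 and bars SD; the Mef2d 135-base exon averaged 10.6% in knockout-labelled libraries and 5.18% in controls.

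Of 40 transcripts listed for the 9 genes, 19 were tested and 7 were higher, with 0 lower. Of the 47621 transcripts tested, 18.1% were called in either direction, and the share called higher was not computed. Pax7, Myod1, Myog, Myf6 and Mstn have 1 transcript each, so their calls among the 7 repeat the gene results. The transcript of Mef2d with the 135-base exon had 441, 468 and 493 counts in the knockout-labelled libraries, against 201, 175 and 177 counts in the controls. The groups were far apart, with a log2 fold change of 1.81 (SE 0.086, edgeR quasi-likelihood adjusted p = 0.0015). The main Mef2d transcript, with the 138-base exon, had a log2 fold change of 0.65 (SE 0.044, adjusted p = 0.00039). A Mef2d transcript with a further exon of 21 bases (ENSMUST00000107559) had 146, 240 and 237 counts in the knockout-labelled libraries, against 69, 4 and 15 counts in the controls, and did not pass the test (edgeR quasi-likelihood adjusted p = 0.099). That small exon (GRCm38 chr3:88161781-88161801, plus strand), the other alternative exon of Mef2d, reads as follows.
Mef2d 21-base exon: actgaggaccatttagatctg

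Of 26 Mef2c transcripts 9 were tested with edgeR and 0 were called, with 2 at an unadjusted p under 0.05, and no other tool was run on transcripts. The 2 main ones, which differ by an exon of 60 bases, were divided unevenly between replicates: ENSMUST00000163888 had 11962, 22364 and 24478 counts in the knockout-labelled libraries, against 11, 12218 and 0 counts in the controls. ENSMUST00000005722 had 26944, 15777 and 16734 counts in the knockout-labelled libraries, against 23987, 11207 and 23080 counts in the controls. Their sum was steady, at 38906, 38141 and 41212 counts in the knockout-labelled libraries, against 23998, 23425 and 23080 counts in the controls. Tested as that sum, a choice made after seeing the values, they had a log2 fold change of 1.22 (edgeR quasi-likelihood adjusted p = 1.1e-05). ENSMUST00000199432, with the 144-base exon, had 2004, 1981 and 2525 counts in the knockout-labelled libraries, against 3350, 4358 and 4185 counts in the controls, and did not pass (log2 fold change -0.40, adjusted p = 0.066).

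Mymk (ENSMUSG00000009214, chromosome 2, 26951648 to 26962191, minus strand), the fusion protein myomaker, had 0, 6 and 0 counts in the knockout-labelled libraries, against 0, 0 and 0 counts in the controls. All 6 values lie under the limit of 12 counts, so Mymk was not detectable at this depth in either group. Its partner Mymx, the small protein myomixer, was at 0 counts in all 6 libraries.

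Mstn (ENSMUSG00000026100, chromosome 1, 53100799 to 53107238, plus strand) and Myf5 had the largest log2 fold changes of the 8, and their order is not settled, since Myf5 was above Mstn without control 1 (3.34 against 3.21) and without control 3 (3.50 against 3.37). Mstn stood at 7.77, 7.78 and 7.64 FPKM in the knockout-labelled libraries, against 1.03, 0.979 and 1.25 FPKM in the controls. The knockout-labelled values were within a narrow band and the controls far below them, with a log2 fold change of 3.25 (SE 0.11, edgeR quasi-likelihood adjusted p = 6.2e-11). The bases before its start are shown because the Mstn promoter is known to be driven by myogenic factors, with E-boxes in capitals (RefSeq GRCm38.p6 chr1:53061390-53061639, plus strand).
Mstn: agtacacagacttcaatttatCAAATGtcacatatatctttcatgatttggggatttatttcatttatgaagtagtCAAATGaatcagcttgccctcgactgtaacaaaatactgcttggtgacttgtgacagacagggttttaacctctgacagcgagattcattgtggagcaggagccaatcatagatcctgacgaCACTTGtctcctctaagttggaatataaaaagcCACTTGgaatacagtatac
It holds 4 E-boxes, CAAATG beginning 229 and again 174 bases before the start and CACTTG beginning 52 and 19 bases before it.

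In order of FPKM in the knockout-labelled femora, the genes ran Mef2c, Myf6, Mef2d, Myod1, Mstn, Myog, Myf5, Pax7 and Mymk. Myf6 (27.2 ± 2.33 FPKM, SD, n = 3) and Mef2d (25.8 ± 0.887 FPKM) lay within their spread of each other there, as did Myod1 (8.39 ± 0.794 FPKM) and Mstn (7.73 ± 0.0777 FPKM). In the controls, Mef2c (23.5 ± 0.347 FPKM) and Mef2d (21.8 ± 0.803 FPKM) headed the order, and Mstn (1.09 ± 0.147 FPKM) and Myog (0.964 ± 0.366 FPKM) were not apart.

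The rise of these genes was set beside that of fibre RNA. The summed counts of the 12 fast fibre genes had a log2 fold change of 2.77 (SE 0.0070) between knockout-labelled and control femora, and those of the 7 slow fibre genes 1.29 (SE 0.0043). Mstn lay above the fast fibre sum, Myf5 had an error that spanned it, and Myod1, Myf6, Pax7, Myog, Mef2c and Mef2d lay below it. Mef2c and Mef2d were also below the slow fibre sum.

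**Figure D3:**
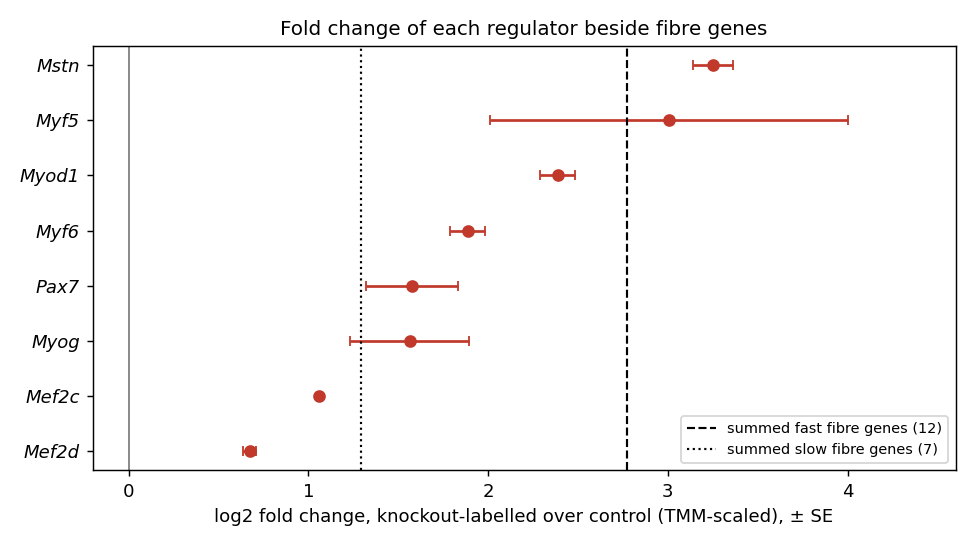
TMM-scaled log2 fold change (x axis), knockout-labelled over control, of the 8 tested regulators; points are estimates and bars SE. The dashed line is the summed fast fibre list at 2.77 and the dotted line the summed slow fibre list at 1.29; Mstn at 3.25 lies right of both.

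With each library scaled to its own fast fibre counts, Mstn alone of the 8 was higher. For each 1 M fast fibre counts a library held, Mstn had 234.1, 232.7 and 227.7 counts in the knockout-labelled libraries, against 154.6, 150.3 and 192.3 in the controls. The groups did not overlap, and the log2 fold change was 0.48 (edgeR quasi-likelihood adjusted p = 0.0039), where 0.441% of all genes tested were higher. The 12 fast fibre genes themselves ran between -0.79 and 0.87 on this scale, with 4 of them higher and 5 lower, so Mstn lay inside their range. Myh4 (0.87) and Pvalb (0.53), named after their values were seen, stood above it. On that scale 6 of the 8 were lower, 4 of which had a positive value when scaled to slow fibre genes. Among all genes tested 95.3% were lower per fast fibre RNA, with the median gene at -2.79. Of those 6, Myod1 was closest to parity, with 185.6, 154.2 and 179.4 counts on the same scale in the knockout-labelled libraries, against 210.4, 226.6 and 240.1 in the controls. The log2 fold change of Myod1, -0.38 (edgeR quasi-likelihood adjusted p = 0.012), missed the threshold without knockout-labelled 2 (adjusted p = 0.053) and with fast and slow lists summed (adjusted p = 0.067). The others were Pax7 (-1.19, adjusted p = 0.0065), Myog (-1.21, adjusted p = 0.0013), Myf6 (-0.88, adjusted p = 1.7e-06), Mef2c (-1.71, adjusted p = 2.1e-15) and Mef2d (-2.10, adjusted p = 3.1e-14). Myf5 was not called (0.25, adjusted p = 0.76). Scaled to the slow fibre list instead, Myod1 (1.09, edgeR quasi-likelihood adjusted p = 2.3e-06) and Myf6 (0.59, adjusted p = 3.5e-05) were higher. Pax7 (0.29, adjusted p = 0.43) and Myog (0.27, adjusted p = 0.35) changed sign and were not called.

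Further genes of the same pathways were taken as 5 lists, whose counts are to be read against the 28.7% of all tested genes that were higher, the 28.8% that were lower and the median of -0.02. With library totals alone, 3379 of all 20388 were higher and 10339 lower. Among 15 further satellite cell genes 6 were higher and 8 lower, with a median log2 fold change of -0.23. Fgfr4, a growth factor receptor of myogenic cells, was higher, at 0.367, 0.429 and 0.252 FPKM in the knockout-labelled libraries, against 0.114, 0.0797 and 0.0973 FPKM in the controls (log2 fold change 2.25, edgeR quasi-likelihood adjusted p = 0.00011). Pax3, the paralog of Pax7, had 27, 16 and 37 counts in the knockout-labelled libraries, against 0, 4 and 0 counts in the controls. The control values are under the limit of 12 counts (edgeR quasi-likelihood adjusted p = 0.0019). Pax3 passed the expression filter only through its knockout-labelled counts, and without that filter its adjusted p was 0.014 in the same test. Calcr, the calcitonin receptor found on quiescent satellite cells and on osteoclasts, was lower, at 0.203 ± 0.0950 FPKM in knockout-labelled femora and 0.726 ± 0.189 FPKM in controls (SD, n = 3 each, edgeR quasi-likelihood adjusted p = 0.0036). Ncam1, a cell adhesion molecule also made by nerve cells, was lower too (log2 fold change -0.97, adjusted p = 5.0e-10). Cdh15, M-cadherin, was higher (log2 fold change 0.60, adjusted p = 4.3e-05) but not called with library totals alone (0.18, adjusted p = 0.072). With that scaling 4 of the 15 were higher and 10 lower.

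Of 16 myoblast fusion genes 14 were tested, 3 were higher and 7 lower, with a median of -0.09. Cav3, the caveolin of the muscle membrane, was higher, at 20.8 ± 1.24 FPKM in knockout-labelled femora and 6.90 ± 0.867 FPKM in controls (SD, n = 3 each; log2 fold change 2.02, edgeR quasi-likelihood adjusted p = 2.7e-09). Jam2, an adhesion molecule also of endothelium, was higher at 0.31 (edgeR quasi-likelihood adjusted p = 1.5e-05) but turned to -0.11 with library totals alone (adjusted p = 0.021). Adgrb1, a receptor used in engulfment as well as fusion, was lower (-2.17, edgeR quasi-likelihood adjusted p = 2.8e-05), as was Dock5, an exchange factor also used by osteoclasts (-1.52, adjusted p = 2.1e-10). With library totals alone, 1 of the 14 was higher and 13 lower. A macrophage marker list of 5 genes, 4 of them lower, held 0.0205% to 0.0213% of counts in knockout-labelled libraries and 0.0741% to 0.0768% in controls, and its part in these lower values was not tested.

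Among 29 cofactors and antagonists of the myogenic and Mef2 factors 9 were higher and 13 lower, with a median of -0.01, close to that of all genes, and 8 were higher and 18 lower with library totals alone. Smyd1, a muscle chromatin factor and Mef2c target, was higher, at 66.8 ± 1.80 FPKM in knockout-labelled femora and 16.5 ± 0.0644 FPKM in controls (SD, n = 3 each; log2 fold change 2.44, edgeR quasi-likelihood adjusted p = 3.4e-15). Meox2, a homeobox factor of limb muscle and vessels, was higher as well (1.72, adjusted p = 2.9e-08). The antagonists Mdfi (-1.48, adjusted p = 2.2e-09) and Twist1 (-1.69, adjusted p = 6.0e-09), which hold back myogenic factors and are also expressed in skeletal progenitors, were lower. Mef2a, a family member outside the 9 genes, was lower at 13.8 ± 0.168 FPKM in knockout-labelled femora and 22.0 ± 0.294 FPKM in controls (SD, n = 3 each; log2 fold change -0.25, edgeR quasi-likelihood adjusted p = 1.1e-06), opposite in sign to Mef2c and Mef2d.

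In the myostatin pathway 5 of 21 genes were higher and 9 lower, with a median of -0.22, and 3 were higher and 13 lower with library totals alone. Wfikkn2, a secreted inhibitor that binds myostatin, was higher (log2 fold change 1.69, edgeR quasi-likelihood adjusted p = 2.8e-07), as was the receptor Acvr2a (0.92, adjusted p = 6.2e-07). The main myostatin receptor Acvr2b (0.09, adjusted p = 0.73) and the inhibitor follistatin, Fst (-0.22, adjusted p = 0.10), did not pass. Fst was called lower in 6 alternatives, namely without knockout-labelled 1 (-0.36, adjusted p = 0.0082), with library totals alone (-0.64, adjusted p = 0.00021), by DESeq2 (-0.24, adjusted p = 0.039) and in the 3 limma settings (-0.49 to -0.64, adjusted p = 0.00066 to 0.0049). Acvr2b was at -0.33 with library totals alone and was not called. Bmp1, a protease that frees myostatin from its latent complex and processes collagen, was lower, at 12.6 ± 0.167 FPKM in knockout-labelled femora and 56.5 ± 0.262 FPKM in controls (SD, n = 3 each; log2 fold change -1.74, edgeR quasi-likelihood adjusted p = 1.3e-14). Inhbb, an activin subunit, was the lowest of the list (-2.62, adjusted p = 3.3e-11). Gdf11, the closest relative of Mstn, was higher at 0.46 (adjusted p = 0.00029), against 0.04 with library totals alone, where it was not called (adjusted p = 0.68).

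Of 11 genes of immature fibres and the nerve-muscle synapse 10 were tested, 9 were higher and 1 lower, with a median of 1.93, and the same counts held with library totals alone. Chrne, counted among the 9 and named after its values were seen, passed the expression filter only through its knockout-labelled counts. It had 99, 90 and 144 counts there, against 6, 16 and 7 counts in the controls. Scaled to fast fibre counts, 4 of the 10 were higher and 5 lower, with a median of -0.83. On that scale 0.441% of all genes tested were higher and 95.3% lower. Actc1, the cardiac actin also made in developing and regenerating muscle, stood at 107.4, 102.9 and 104.8 FPKM in the knockout-labelled libraries, against 1.96, 2.26 and 2.48 FPKM in the controls. That was the largest difference of the list, with a log2 fold change of 5.98 (SE 0.10, edgeR quasi-likelihood adjusted p = 2.2e-15). Mybph, a myosin-binding protein, was also far higher (4.94, adjusted p = 8.4e-15). Myh3, the embryonic myosin heavy chain, was the exception, lower at 2.14 ± 0.171 FPKM in knockout-labelled femora and 3.51 ± 0.253 FPKM in controls (SD, n = 3 each; log2 fold change -0.29, edgeR quasi-likelihood adjusted p = 0.011). Chrng, the fetal subunit of the acetylcholine receptor, was at 0 counts in all 6 libraries.

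**Figure D4:**
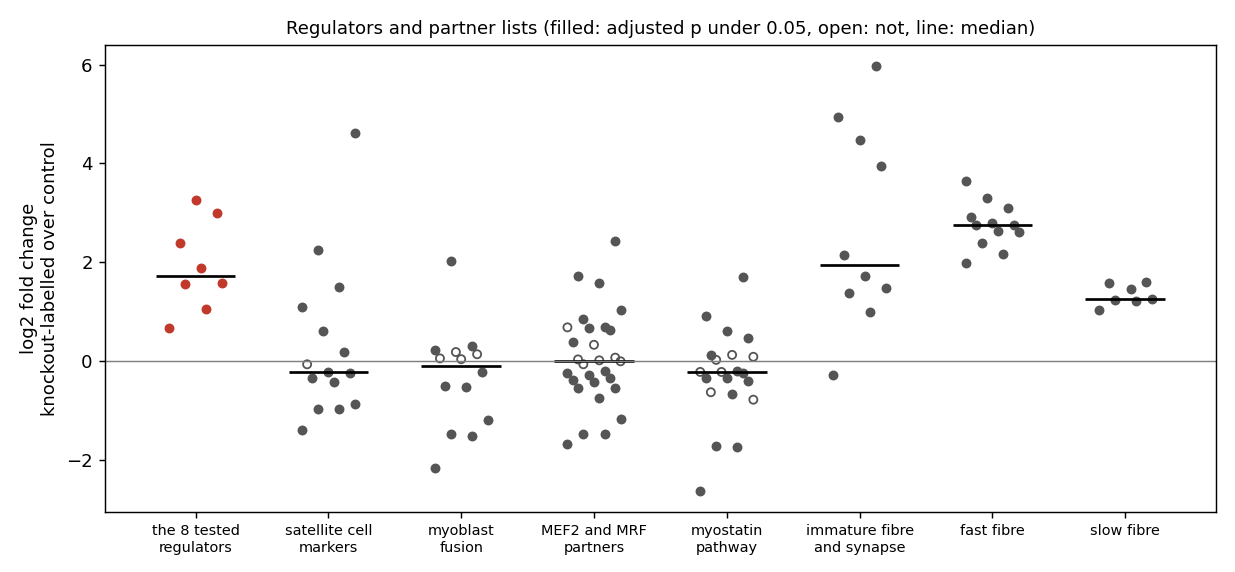
TMM-scaled log2 fold change (y axis), knockout-labelled over control, of each tested gene of the regulators and of 7 gene lists (x axis). Filled points passed an adjusted p of 0.05, open points did not, and lines are medians: 1.73 for the 8 regulators, -0.23 for satellite cell genes and 1.93 for immature fibre and synapse genes.

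The genes nearest to each regulator in pattern were found by the Euclidean distance of centred log2 CPM over the 6 libraries, among 12305 genes with a mean FPKM of at least 1. For Myod1 these were Bves (distance 0.178) and Cacng6 (0.189), a muscle membrane protein and a calcium channel subunit. For Myf6 they were Mllt11 and Egln3 (both 0.138), for Mef2c Ghitm (0.0248) and Psme4 (0.0286), and for Mef2d Grtp1 (0.0331) and Letm1 (0.0444). For Mstn they were Hoxd9 (0.218) and a gene listed as Aldoa (ENSMUSG00000114515, 0.217), which shares its symbol with another entry and may share reads with it. For Pax7 the nearest was Reep6 (0.285). Myog had only looser neighbours, Ighv6-6 (0.464) and the pseudogene Cox5b-ps (0.467), and Myf5 the loosest, Cytl1 (1.64) and Igkv14-126 (1.65). A distance over 6 libraries in 2 groups reflects mostly the size of the group difference.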

How the data were processed

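RNA of 6 mouse femora was measured, with groups taken from the treatment label and replicate numbers from the titles. Per the labels' protocols, a stranded kit was used on poly(A)-selected RNA, with paired reads. The deposited tables hold, per gene and per transcript, FPKM computed by the authors (fragments per kilobase, scaled to depth) and estimated counts, whole numbers that are not tallies of reads. In single-exon genes, 43.8% to 49.2% of counts from 1 to 12 were multiples of 4, so a read pair was taken to add 4 counts. Per the submitters' processing notes, the tools were RSEM, StringTie, HISAT2 and fastp and the build GRCm39. Their versions and roles, the strand setting, filters and annotation are not given in the sources used. Genes on the opposite strand of Mef2c and Mef2d held at most 0.514% of the counts of either.

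The whole gene table was tested with edgeR 4.0.16 in R 4.3.3: estimated counts rounded, filterByExpr (20388 of 34361 genes), scaling by TMM, a two-sided quasi-likelihood F test on the group, and Benjamini-Hochberg adjustment at 0.05. The SE of a log2 fold change was computed from the replicates' log2 CPM with a prior count of 2. The transcript table was fitted alike, and a further fit scaled each library to its fast fibre counts. Limma 3.58.1 and DESeq2 1.42.0 were alternatives, and exact permutation tests were run with scipy 1.17.1. Exons were aligned with Biopython 1.88. Counts were simulated for the knockout-labelled against control comparison over 19922 genes, of which 19722 were left unchanged. There edgeR recovered 59 of 67 genes changed 1.5-fold, 66 of 67 changed 2-fold and 66 of 66 changed 4-fold. It called 10 of the 19722 unchanged genes. In the measured libraries 11732 of 20388 genes were called, and the rate of false calls with so large a share changed was not tested.

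The 9 genes, the partner lists and the cell type markers were chosen with earlier results of these data known. Besides the 9, named genes are up to 2 of the largest and 2 of the smallest log2 fold changes called in each of 5 partner lists, plus Pax3, Mymx, Cdh15, Mef2a, Gdf11, Fst, Acvr2b, Myh3, Chrng and Sost, and the 2 nearest genes by pattern, leaving out predicted genes. A gene that this rule took is not reported here. The other marker lists held 6 smooth muscle genes, 6 higher with 0.0191% to 0.0194% of counts in knockout-labelled libraries and 0.0158% to 0.0165% in controls, and 7 adipocyte genes, 6 higher and 1 lower with 0.0328% to 0.0341% in knockout-labelled libraries and 0.0122% to 0.0123% in controls. Of the 9 B cell markers 8 matched a symbol.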

Additional observations from a re-analysis of the deposited data

How the results depend on the processing

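Of 696 values recomputed under alternatives, 668 were the same, 10 lost and 6 gained a call, and 12 changed sign. For a gene, the same meant its direction and its side of the threshold. For a count of calls it meant a similar size, and for a ratio or exon share the direction alone. The 8 regulators kept their direction and call under every alternative that tested them, and Pax7 and Myf5 were filtered out of limma at FPKM 1 or more, where 6 regulators were tested and called. The calls over all genes ran between 10916 and 13718. Jam2 turned to -0.11 with library totals alone and in limma on log2(FPKM + 1), with and without the filter, and to -0.11 with 0.1 FPKM added. Acvr2b, not called, turned to -0.33 with library totals and to -0.14 in limma without the filter, and ran between -0.00045 (without control 2) and 0.21 (without knockout-labelled 3) when single libraries were left out. Per fast fibre RNA, scaling to the slow list gave 0.29 for Pax7, 1.09 for Myod1, 0.27 for Myog and 0.59 for Myf6 (Pax7 and Myog then not called), and Myf5, not called, ran between -0.33 (without control 2) and 0.76 (without control 3) when single libraries were left out. The cause of these changes was not tested. Same-numbered libraries did not deviate together (r of -0.028, 0.010 and 0.018 for numbers 1, 2 and 3). That gave no sign of pairing by number, but with 3 libraries per group it cannot exclude it. With a replicate block 11344 genes were called, against 11732 without it, and all 8 regulators remained called, with log2 fold changes of 1.57 for Pax7, 3.22 for Myf5 and 0.67 for Mef2d. Depth limits Pax7, Myf5 and Mymk, which rest on few read pairs.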
